A study of Mus musculus with 6 samples.

Results

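The clustered protocadherin genes are 3 neighbouring gene arrays on mouse chromosome 18, called alpha, beta and gamma. They were taken as all genes on that chromosome in a RefSeq table of GRCm38.p6 whose symbol is Pcdha, Pcdhb or Pcdhg followed by an optional type letter and a number. This rule found 58 genes of 49943 annotated on chromosomes 1 to 19, X and Y: 14 alpha, 22 beta and 22 gamma members. All are protein-coding except Pcdhgb8, a transcribed pseudogene. Accessible sites were the 111 peaks, of 77629 in the library, from 200 kb below the first member to 200 kb above the last, on a span from 36930285 to 37841873 of chromosome 18. At the outer bounds the last peaks inside had pileups of 89 and 15, and the next peaks outside had pileups of 28 and 19.

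Clustered protocadherins are cell-surface adhesion proteins that bind like isoforms on neighbouring cells, and are best known for giving each neuron a surface identity used in self-avoidance of its dendrites. In the alpha and gamma arrays each member has its own promoter and its own large variable exon, which is spliced to constant exons shared by the whole array. Beta members are single-exon genes without shared constant exons. In mouse neurons the insulator protein CTCF and cohesin, bound at promoters and at variable exons, join chosen promoters to distant enhancers such as HS5-1 downstream of the alpha constant exons. The C-type members Pcdhac1, Pcdhac2, Pcdhgc3, Pcdhgc4 and Pcdhgc5 are known for a more regular use than the other members, whose promoters are chosen at random cell by cell.

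The study examines how NSD1, a methyltransferase for lysine 36 of histone H3, acts on enhancers and cell fate. Its ATAC-seq samples, 6 in 6 groups of 1, come from E14 mouse embryonic stem cells (mESCs) with an NSD1-dTAG knock-in, a tag through which the small molecule dTAG-13 directs NSD1 to degradation. The mESC groups, kept in 2i/LIF, received dTAG-13 at 500 nM for 0, 1, 6 or 24 h, and 2 groups of embryoid bodies were taken at day 6, 1 grown with dTAG-13 at 500 nM and 1 grown without it. Times follow the titles, because the treatment field gives 6 h for the samples titled 1 h and 24 h too. The tag is shared by all groups, and the sources used here do not say whether the line is a single clone. Peaks of the untreated 0 h mESC library were used, and the other groups were not analysed here. There was thus no replicate, no contrast between conditions and no p-value, and intervals below cover counting error or the number of genes only.

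ATAC-seq marks open DNA by inserting sequencing adapters with the Tn5 transposase. Each peak is described by its summit pileup, the reads or fragments stacked at its highest point, recovered from the deposited values, and by the authors' fold enrichment over the local background of the same library. Fold enrichment is the authors' own value per peak. The lowest listed pileup was 6 where the local background was the genome-wide 1.3, and 10, 13 and 17 at local backgrounds of about 3, 5 and 7. A weaker site was not detectable at this depth. All 5 stem cell markers checked (Pou5f1, Sox2, Nanog, Zfp42 and Klf4) had a peak at the start, with pileups from 58 to 152. Of 4 neuronal markers with a known start, Map2, Syt1 and Tubb3 had one (49 to 68) and Rbfox3 had none, and Snap25, without a strand, had a gene-end peak of 29. Of 2 fibroblast markers with a known start, Col1a2 had one of 7 and Postn had none, while Col1a1, Thy1 and Pdgfrb, without a strand, had gene-end peaks of 38, 22 and 15. Members can resemble each other closely, and the sources used here do not say how reads that match several places were treated, so missing peaks among them are uncertain.

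The arrays were open at many small sites, most of them in 2 adjoining zones of the genes. A peak within 1 kb of the annotated start, called a start peak, was present at 38 of 58 members (65.5%, Wilson 95% interval 52.7 to 76.4). A separate peak with its summit 1 to 3 kb inside the gene, called an inner peak, was present at 28 of 58 (48.3%, 35.9 to 60.8). Among 17492 protein-coding genes outside the arrays with a known strand, 63.0% had a start peak and 8.1% an inner peak. The start-peak share of members was thus close to that of other genes, at 2.49 percentage points above it (Newcombe 95% interval -10.4 to 13.4). The inner-peak share was 40.2 points above it (27.8 to 52.7). The bounds of 1 and 3 kb were set after seeing the summits. At the mirrored place, 1 to 3 kb before the start, 7 of 58 members had a peak (12.1%), against 6.53% of other genes. Each of these 7 peaks was also the inner peak of the member before, so none was a separate site. In all, 51 members had a start or an inner peak, against 66.7% of other genes. Of the 78 peaks that touch an array, 39 were start peaks, 28 were inner peaks and 11 lay elsewhere. Where starts lie close together, as in gamma, the 2 zones cover much of the array, so this split was partly set by the zones. No start peak was shared by neighbouring members, whose starts lay at least 3.779 kb apart.

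**Figure D1:**
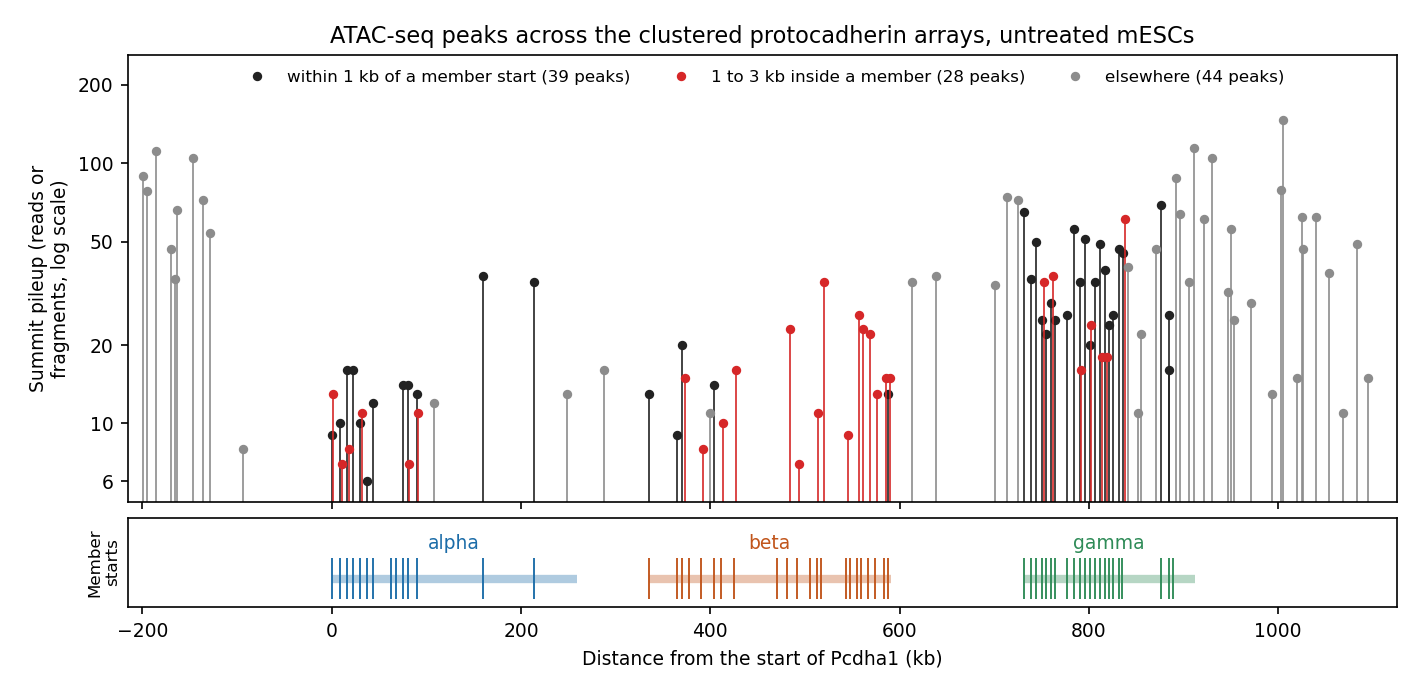
Summit pileup (log scale, reads or fragments) of each of the 111 peaks against its distance in kb from the start of Pcdha1, with member starts as ticks and array spans as bars underneath. Alpha start peaks stay at 6 to 16 except at Pcdhac1 (37) and Pcdhac2 (35), beta peaks are mostly inner, and the tallest peak at each gamma start lies between 20 and 69, with a second one of 16 at Pcdhgc4.

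Start summits lay within 250 bp of the start at 31 of the 38 members, 7 alpha, 5 beta and 19 gamma, and at 70.0% of other genes with a start peak.

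The arrays differed in the 2 zones. In the alpha array 12 of 14 members had a start peak (85.7%, Wilson 60.1 to 96.0) and 6 had an inner peak as well. In the beta array the order was turned round, with a start peak at 5 of 22 members (22.7%, 10.1 to 43.4) and an inner peak at 15 (68.2%, 47.3 to 83.6). In the gamma array 21 of 22 members had a start peak (95.5%, 78.2 to 99.2) and 7 an inner peak (31.8%, 16.4 to 52.7). The beta start-peak share lay below that of other genes, by a difference of -40.3 points (Newcombe 95% interval -52.9 to -19.6), and the gamma share was 32.4 points above (15.2 to 36.2). For alpha the difference of 22.7 points had an interval of -2.97 to 33, so no difference from other genes was detectable. Between arrays, the alpha share exceeded the beta share by 63.0 points (30 to 79.2) and the gamma share exceeded it by 72.7 (45.8 to 85.9). The inner-peak share was above that of other genes in each array, by 34.8 points in alpha (13.3 to 59.3), 60.1 in beta (39.2 to 75.5) and 23.7 in gamma (8.25 to 44.6). With a pileup of at least 20 required, 0 alpha, 5 beta and 4 gamma members had an inner peak, against 6.28% of other genes. The alpha difference thus rested on peaks below 20. With start windows of 2500 bp the beta start-peak call turned round, since 19 of 22 beta members then had a peak and their share was 18 points above other genes. That window reaches the inner peaks. For the beta members, the start was set at the lower coordinate from their known orientation, since the table gives no strand for chromosome 18.

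**Figure D2:**
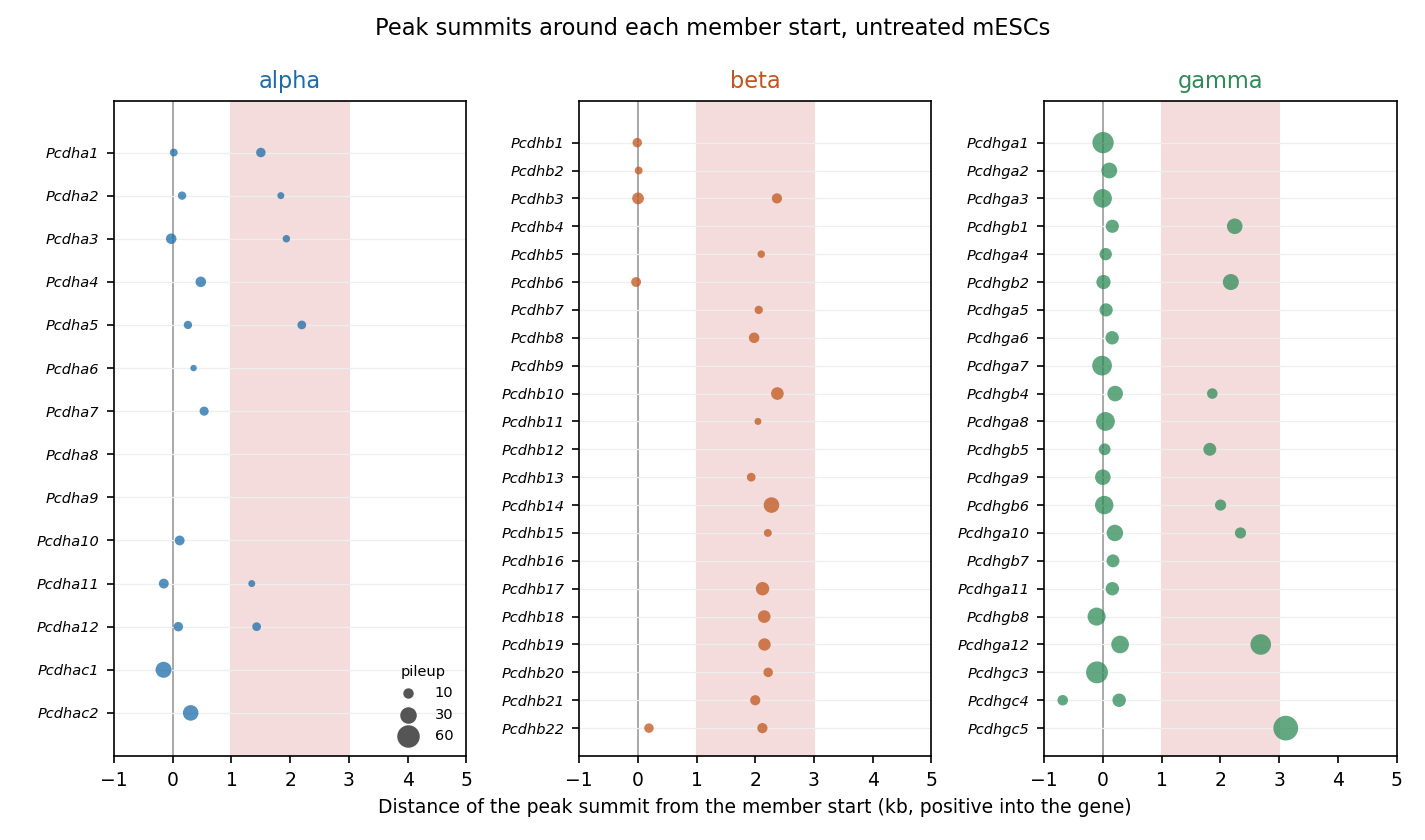
Distance in kb of each peak summit from the start of its member, with members from top to bottom in chromosome order, dot area proportional to summit pileup, and the zone 1 to 3 kb inside the gene shaded. The tallest start summit of each member lies between -156 and 535 bp of the start, and the 15 beta inner summits form a narrow column between 1.931 and 2.377 kb.

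The variable alpha members, Pcdha1 to Pcdha12, had low start peaks, in the range of the few beta ones. Each of these members encodes an isoform with its own extracellular cadherin repeats and the shared alpha cytoplasmic tail. Their 10 start peaks had pileups from 6 to 16 with a median of 12.5, and none reached 20. Pcdha1, the first member (NCBI gene 116731), had a pileup of 9 (exact Poisson 95% interval 4.12 to 17.1) at 36930068 to 36930783 and an inner peak of 13 (6.92 to 22.2). Its inner peak was the taller, but the intervals overlap. Pcdha2 and Pcdha5 had start pileups of 10 each (4.80 to 18.4). Pcdha6 had the lowest start pileup of all members, 6 (2.2 to 13.1), which equals the lowest listed value at that background. Pcdha3 and Pcdha4 had the highest of this group, 16 each (9.15 to 26.0). Pcdha7, Pcdha10, Pcdha11 and Pcdha12 had 12, 14, 14 and 13. These intervals overlap from member to member, so they resolve no difference among the 10 members with a start peak. Pcdha8 and Pcdha9, which are neighbours, had neither a start peak nor an inner peak.

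Inner peaks of the alpha array stood at Pcdha1, Pcdha2, Pcdha3, Pcdha5, Pcdha11 and Pcdha12, with pileups from 7 to 13 and a median of 9.5. Their summits lay 1.346 to 2.198 kb past the start. At Pcdha1 and Pcdha5 the inner peak was the taller, by 13 against 9 and by 11 against 10, and at the other 4 the start peak was. None of these differences exceeded the Poisson intervals.

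The C-type alpha members stood above the variable ones. Pcdhac1 (gene 353236) had a start pileup of 37 (26.1 to 51.0) and a fold of 14.3 at 37089679 to 37090283. Pcdhac2 (gene 353237), the last alpha member, had 35 (24.4 to 48.7) and a fold of 9.57 at 37143531 to 37144815, the widest start peak of all members at 1285 bp. Both pileups were above that of every variable alpha member, and the interval of Pcdhac1 began just above that of the highest of them, 16 (9.15 to 26.0). The interval of Pcdhac2 overlapped it. Neither had an inner peak. Local background was 1.66 and 2.76 at these starts and 1.3 to 1.76 at the variable ones.

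Most beta members had no listed peak at the start and one inside. These genes encode protocadherins with a short cytoplasmic part and no shared tail. Start peaks stood at Pcdhb1 (pileup 13), Pcdhb2 (9), Pcdhb3 (20), Pcdhb6 (14) and Pcdhb22 (13), with summits from -29 to 190 bp of the start. Pcdhb1 and Pcdhb22 are the first and last beta members. Of these 5, only Pcdhb3 and Pcdhb22 had an inner peak too. The intervals of the 5 overlap, from 4.12 to 17.1 at Pcdhb2 to 12.2 to 30.9 at Pcdhb3.

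Of the 17 beta members without a start peak, 13 had an inner peak (76.5%, Wilson 52.7 to 90.4). Among other protein-coding genes without a start peak the share was 10.0%. The 15 beta inner peaks had pileups from 7 to 35 with a median of 15, and 5 reached 20. Pcdhb14 had the tallest, 35 (24.4 to 48.7) with a fold of 12.6. Pcdhb17 followed with 26 (17 to 38.1), Pcdhb10 and Pcdhb18 had 23 each (14.6 to 34.5) and Pcdhb19 had 22 (13.8 to 33.3). Pcdhb11 had the lowest, 7 (2.81 to 14.4), an interval that does not overlap that of Pcdhb10, Pcdhb14, Pcdhb17 or Pcdhb18. The other 9 inner peaks had pileups from 8 to 16. Pcdhb4, Pcdhb9, Pcdhb12 and Pcdhb16 had neither kind of peak.

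The beta inner summits kept nearly the same distance from the start. It was 2142 ± 132 bp (mean ± SD over 15 genes, which are not replicates), while the distance to the far end of the gene was 1307 ± 710 bp. Only summits 1 to 3 kb from the start were counted, which limits the first spread and not the second. The 15 summits lay between 1.931 and 2.377 kb, a narrower range than that zone. The annotated lengths of these genes varied with an SD of 712 bp, and over all 22 beta members from 2340 to 5271 bp. At 7 members, among them Pcdhb8, whose inner summit lies 358 bp from its far end, the inner peak fell within 1 kb of that end. Counting either gene end in place of the start therefore gave 11 beta members with a peak in place of 5, or 50.0%, against 66.3% of other genes.

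**Figure D3:**
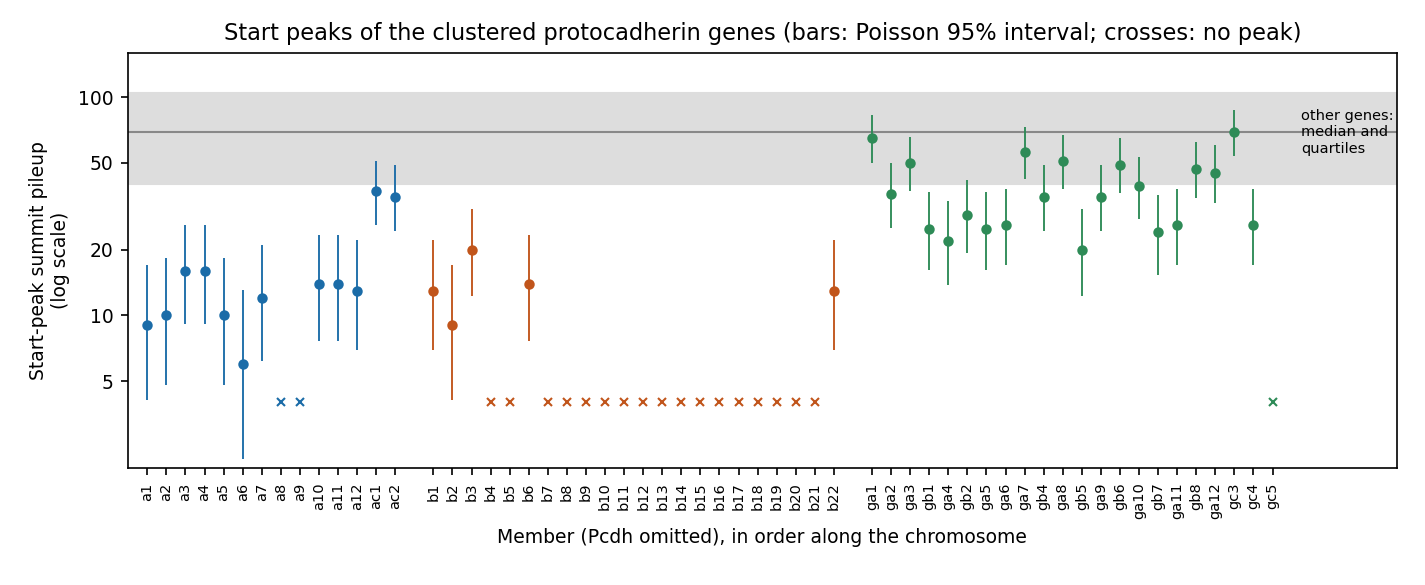
Start-peak summit pileup (log scale) of the 58 members in chromosome order, alpha in blue, beta in orange and gamma in green, with exact Poisson 95% intervals, crosses for members without a start peak, and the median (69) and quartiles (40 and 104) of other protein-coding genes as a line and band. The 21 gamma values reach from 20 to 69, and the alpha and beta values other than Pcdhac1 and Pcdhac2 from 6 to 20.

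The gamma array had the tallest start peaks by pileup, with a median of 35 and at least 20 at each of the 21 open starts. Gamma members fall into A, B and C types by sequence and share gamma constant exons. All 12 A-type and all 7 B-type members had a start peak, including the pseudogene Pcdhgb8 with a pileup of 47 (34.5 to 62.5). Pcdhga1 (gene 93709), the first gamma member, had 65 (50.2 to 82.8) and the highest fold of all start peaks, 18.3, at 37661623 to 37662394. Pcdhga7 had 56 (42.3 to 72.7), Pcdhga8 had 51 (38.0 to 67.1), Pcdhga3 had 50 (37.1 to 65.9) and Pcdhgb6 had 49 (36.3 to 64.8). Pcdhga12 and Pcdhga10 had 45 (32.8 to 60.2) and 39 (27.7 to 53.3). These 6 overlap in their intervals with Pcdhga1, as does Pcdhgb8. The lowest gamma values were 20 at Pcdhgb5 (12.2 to 30.9) and 22 at Pcdhga4 (13.8 to 33.3), with intervals below those of Pcdhga1, Pcdhgc3, Pcdhgb8, Pcdhga3, Pcdhga7, Pcdhga8 and Pcdhgb6. The other 9 A-type and B-type members lay between 24 and 36. The A-type median was 37.5 and the B-type median 29. Local background was 1.47 to 7.01 at A-type and 2.5 to 6.71 at B-type starts, against 1.3 to 1.76 at variable alpha ones. By fold the medians were 9.22 at A-type, 6.19 at B-type and 5.73 at variable alpha starts. The contrast with alpha was thus smaller by fold than by pileup.

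Among C-type gamma members the values spread widely. Pcdhgc3 (gene 93706) had the highest start pileup of all members, 69 (53.7 to 87.3), at 37806013 to 37807067. Pcdhgc4 had 2 start peaks, of 26 (17 to 38.1) at 277 bp past the start and of 16 (9.15 to 26.0) at -684 bp, before it. Pcdhgc5, the last gamma member, had no start peak. A peak of 88 (70.6 to 108) lay 3114 bp inside it, just beyond the inner zone. No C-type member of either array had an inner peak, 0 of 5 (Wilson 95% upper limit 43.4%).

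Within the gamma array, inner peaks stood mainly at B-type members. They were present at 5 of 7 B-type members (71.4%, Wilson 35.9 to 91.8) and at 2 of 12 A-type members (16.7%, 4.70 to 44.8). The difference was 54.8 percentage points (Newcombe 95% interval 9.44 to 78.4), in a grouping looked at only after the peaks were seen. Pcdhgb1, Pcdhgb2, Pcdhgb4, Pcdhgb5 and Pcdhgb6 had inner pileups of 35, 37, 16, 24 and 18, with summits 1.821 to 2.245 kb past the start. Inner summits of the A-type lay farther in, at 2.343 kb in Pcdhga10 (pileup 18) and 2.688 kb in Pcdhga12 (61, interval 46.7 to 78.4), the tallest inner peak of all members. In 4 of these 7 genes the inner peak was taller than the start peak, though each time within the overlap of the Poisson intervals. The local background at gamma inner peaks was 3.42 to 6.75, against 1.3 to 2.40 in the beta array. At a background of about 5 the lowest listed pileup was 13, and 10 of the 21 alpha and beta inner peaks were below that. The gamma share of inner peaks, a difference of -36.4 points from beta (-58.2 to -6.86), was thus read with a higher floor.

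Member start peaks were low beside those of other genes. The median start pileup was 25 over the 38 members with a peak and 69 over 11024 other genes with a peak, a ratio of 0.362. By array the medians were 13.5 in alpha, 13 in beta and 35 in gamma, ratios of 0.196, 0.188 and 0.507. By the authors' fold the ratio was 0.545 over all members, from a median fold of 6.17 at members and 11.3 at other genes. A start pileup of at least 20 was found at 24 members, of which 21 were gamma, 2 alpha and 1 beta, against a share of 58.2% of other genes. With that minimum the alpha share of start peaks fell below that of other genes, by a difference of -43.9 points in place of 22.7. The medians over members and over other genes use only peaks that passed the authors' threshold, and genes without a peak would lower both.

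Beyond the starts and inner sites, few peaks lay inside the arrays. In the alpha array there were 2, with pileups of 12 17734 bp past the start of Pcdha12 and 13 (6.92 to 22.2) at 37178305 to 37178719, -9.174 kb from the alpha members' shared end. The gap between alpha and beta held a single peak, of 16 (9.15 to 26.0) at 37218140 to 37218410, 30.65 kb past that end. Its position is downstream of the alpha constant exons, where the HS5-1 enhancer is known to lie, but no annotation of that element was used here. The beta array held 1 such peak, of 11, at -3689 bp from the start of Pcdhb6.

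The tallest peak of the arrays lay at the downstream end of the gamma members. The peak at 37840307 to 37841533, -0.992 kb from the shared gamma end, had a pileup of 114 (94.0 to 137). It lies within 1 kb of the annotated end of all 22 gamma members. Its interval lies above those of all member start peaks. Past the array, inside Diaph1, which encodes an actin-nucleating formin, peaks of 61 (46.7 to 78.4) and 105 (85.9 to 127) lay 10.371 and 18.349 kb past the gamma end. Inside Pcdhgc5 peaks of 64 (49.3 to 81.7) and 35 (24.4 to 48.7) lay 6855 and 16670 bp past its start. Between Pcdhga12 and Pcdhgc3 peaks of 40, 11 and 22 were listed, and a further one of 47 (34.5 to 62.5) stood at 37800810 to 37801187. In front of the array, a peak of 72 (56.3 to 90.7) with a fold of 18.3 lay at -5931 bp from the start of Pcdhga1.

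Most flanking genes had a gene-end peak taller than the median member start peak. Their strand was not given, so either end was counted for them, while the member value is for the start only. Below the arrays all 8 protein-coding neighbours had a gene-end peak. The tallest was 111 (91.3 to 134) between Ndufa2 and Ik, a complex I subunit and a splicing factor, and 105 (85.9 to 127) lay between Hars and Hars2, the histidyl-tRNA synthetases. Tmco6 had 78, Zmat2 72, Dnd1 66 and Wdr55 47. Between beta and gamma, Taf7, a subunit of the general factor TFIID, had 74 (58.1 to 92.9) and the transporter gene Slc25a2 had none. Above the arrays all 5 had one, led by Diaph1 with 147 (124 to 173), with 62 at Hdac3, Rell2 and Fchsd1 and 11 at Arap3. The tallest flank peaks at no protein-coding gene end were the 105 and a 79 inside Diaph1 and the 89 at the lower bound. The share of genes with a peak at either end was 66.5% over all 21887 protein-coding genes.

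No difference in peak density between the arrays and their gene-rich flanks was detectable. From the first to the last member there were 84 peaks on 911.6 kb, or 9.21 per 100 kb (exact Poisson 95% interval 7.35 to 11.4), covering 45.25 kb. The flanks held 27 on 400 kb, or 6.75 (4.45 to 9.82), covering 17.79 kb. The ratio was 1.37 (0.876 to 2.19), so a density of up to 2.19 times that of the flanks is within the interval, and the median pileup was 22 in the arrays and 54 in the flanks. Against all autosomes, with 3.08 per 100 kb, the ratio was 3.00 (2.39 to 3.71). The gamma array alone had 20.5 peaks per 100 kb (14.5 to 28.3), alpha 7.73 (4.72 to 11.9) and beta 8.19 (5.07 to 12.5). The ratio of gamma to alpha was 2.66 (1.5 to 4.83) and that of gamma to beta 2.51 (1.43 to 4.51). Start spacing was shortest in gamma, with a median of 5.33 kb from start to next start, against 7.5135 kb in alpha and 8.615 kb in beta. The alpha and beta medians include the step to the next array, of 121.32 and 143.422 kb. The density ratio of alpha to beta was 0.944 (0.486 to 1.83), so no order between these 2 arrays was resolved. The part of spacing in the density was not tested.

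**Figure D4:**
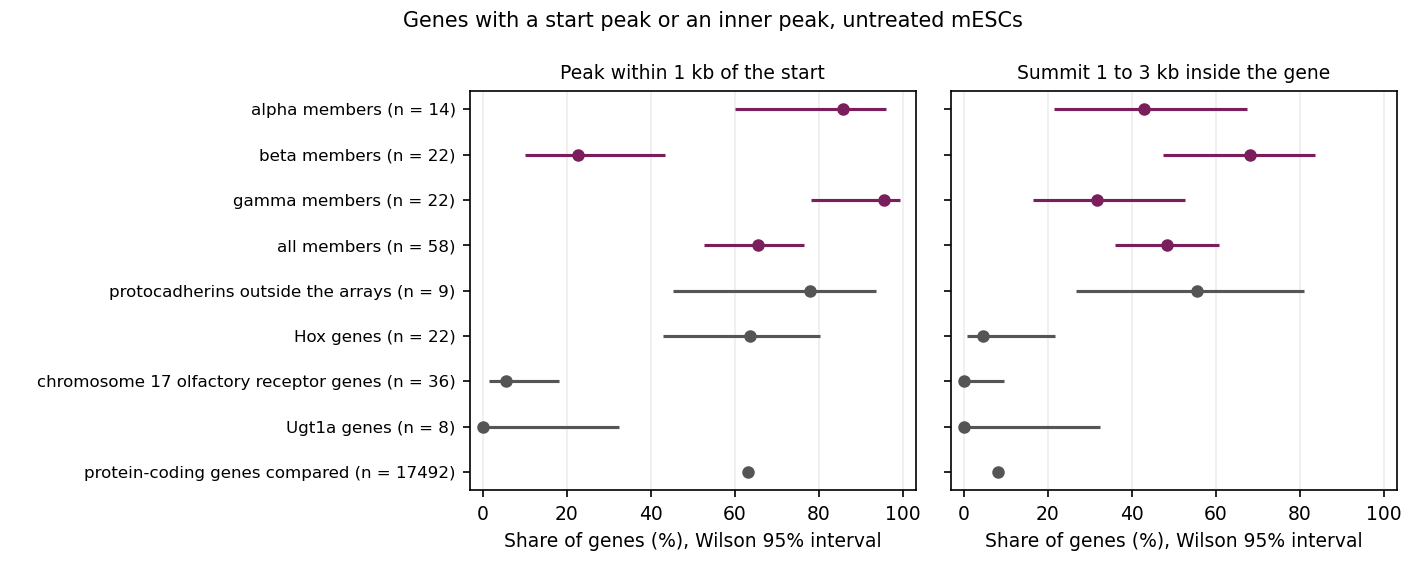
Share of genes with a start peak (left) and with an inner peak (right) in percent, with Wilson 95% intervals, for the members by array, for other gene sets and for all protein-coding genes compared. Beta members are low on the left (22.7%) and high on the right (68.2%), and the inner share of the compared genes is 8.1%.

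Inner peaks were rare or missing in the other tandem arrays looked at. Of 8 Ugt1a genes, which encode glucuronosyltransferases and also join variable first exons to shared ones, none had a start or an inner peak (0%, upper limit 32.4), among them Ugt1a1 and Ugt1a10, while Ugt1a6b, without a strand, had a gene-end peak of 11. Of 36 olfactory receptor genes on chromosome 17, 2 had a start peak (5.56%), Olfr95 with 30 and Olfr94 with 28, and none had an inner peak (upper limit 9.64%), with Olfr101 and Olfr102 among those lacking both. Of 22 Hox genes with a known strand, 14 had a start peak (63.6%, 43.0 to 80.3) with a median pileup of 28.5, led by Hoxd13 (46) and Hoxa7 (38), and Hoxa2 and Hoxa6 had none. Only Hoxa9 among them had an inner peak (4.55%, 0.807 to 21.8).

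Protocadherins outside the arrays resembled the members in having inner peaks. Of 9 such genes with a known strand, 7 had a start peak (77.8%, Wilson 45.3 to 93.7) with a median pileup of 39, and 5 had an inner peak (55.6%, 26.7 to 81.1). Pcdh17 (44) and Pcdh10 (43), adhesion genes of the developing brain, had the highest start pileups, and Pcdh15, of the hair cell tip link, and Pcdh9 had none. Of the 3 genes without a strand, Pcdh1 had a gene-end peak of 54, Pcdh11x one of 13 and Pcdh12 none.

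Most genes that regulate the arrays or act below them had a start peak, in shares whose intervals include the 63.0% of other genes. Of 12 regulators with a known strand, 10 had a start peak (83.3%, 55.2 to 95.3) with a median pileup of 89.5, from 21 (13 to 32.1) at Stag1, which encodes a cohesin subunit, upward. The median was 25 over members and 69 over other genes. Wapl, which releases cohesin, had 206 (179 to 236) and Trim28, a corepressor, had 171 (146 to 199). Ctcf had 120 (99.5 to 143), and Smchd1 and Setdb1, known as repressors of the arrays in mouse, had 95 (76.9 to 116) and 73 (57.2 to 91.8). The DNA methyltransferase gene Dnmt3b had 48 (35.4 to 63.6), and Dnmt1 and Dnmt3a had none at the annotated start. Without a strand, Rest and Stag2 had gene-end peaks of 69 and 46, and Nipbl and Rad21 had none. Of 8 intracellular partners with a known strand, 7 had a start peak (87.5%, 52.9 to 97.8) with a median of 95, led by Pdcd10 (170) and the kinase gene Fyn (169), and Src had none.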

How the data were processed

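Peaks of 1 ATAC-seq library were analysed. Per the submitters' processing notes, the builds were mm10 and GRCm38.p6 and the tools MACS2 2.2.6, Bowtie2 2.3.4.1, deepTools 3.2.1, bcl2fastq 2.20.0.422 and SAMtools 1.9. The sources used here do not give read filters, any Tn5 shift or the sequencing depth. The deposited list was called on this sample alone at a q-value of 0.05. It gives an integer score, equal to 10 times -log10 q rounded down in 100% of peaks, and the authors' fold (a ratio to local background), -log10 p and -log10 q. Summit pileup was recovered from fold = (pileup + 1)/(background + 1) and the Poisson -log10 p, giving whole numbers for 77626 of 77629 peaks (tolerance 0.01), including all 111 used. PCR copies are not independent molecules, so intervals cover counting error only.

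Positions are printed from 1. A peak was at a start if it overlapped 1 kb either side by 1 bp. Strand came from a RefSeq promoter table, which holds no entry for chromosome 18. Alpha and gamma members share their upper end (13 of 14 and 21 of 22 within 10 bp), so the other end is the start. The design fixed both ends for genes with no shared end, and the lower end was used for beta members instead, with either end as an alternative. No sequence is printed.

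With 1 library no test was made. Shares carry Wilson and differences Newcombe 95% intervals, and ratios of peak density exact conditional ones. The members, lists and settings were chosen with earlier results of these data known. Named genes were the 10 highest and 5 lowest start pileups, C-type, first and last members, neighbouring genes, the 10 tallest peaks away from starts, and the 2 highest and first 2 without a peak per list. Others were named after their values were seen. On simulated data all of 5000 pileups and all of 400 genes with or without planted peaks were recovered. The simulation used the same formula as the recovery and planted peaks well inside the start and inner zones. It thus checked the code only, and not the assumed member starts or closely spaced members. Alternatives varied windows, thresholds, ends, flanks and measures. The tools were scipy 1.17.1, statsmodels 0.14.6, numpy 2.4.6, matplotlib 3.10.9, pandas 2.3.3 and Python 3.11.15.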

Additional observations from a re-analysis of the deposited data

How the results depend on the processing

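Minimum heights moved the most counts. With a pileup of at least 20 required, 24 members had a start peak, 9 an inner peak, 2 alpha and 6 beta peaks remained in those arrays, and 43 peaks lay away from member starts. With -log10 q of at least 5, 8 alpha members had a start peak in place of 12. The alpha share then differed from that of other genes by -4.26 points in place of 22.7. At that -log10 q, the alpha array held 13 peaks and 18 members had an inner peak, 11 of them beta. The share of members with an inner peak was then 31.0%, against 6.76% of other genes, and 15.5% against 6.28% at a pileup of at least 20. By array, 3 alpha and 4 gamma members had one at that -log10 q, and 0 alpha, 5 beta and 4 gamma members at that pileup. These settings for inner peaks were added after seeing the data. With windows of 2500 bp, 44 peaks lay away from starts, and the beta share of start peaks turned to 18 points above other genes, since that window reaches the inner peaks. By fold in place of pileup the ratio of member to other start peaks was 0.545. The count of members with a start peak ranged from 24 to 52 and the density ratio of arrays to flanks from 0.898 to 1.84 over the alternatives tried. No count of the other gene sets moved by over 1.5 times under the 5 settings tried on them. No paired analysis was possible because each group has 1 sample.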

Other observations

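Between the outermost peaks of the arrays, the longest stretches without a peak were 61.3 kb in the gap between beta and gamma, 56.3 kb between the inner peaks of Pcdhb8 and Pcdhb10, which holds Pcdhb9, and 53.2 kb between the start peaks of Pcdhac1 and Pcdhac2. The table also lists 3 protein-coding genes, Gm37013, Gm38666 and Gm38667, that begin 41 bp before Pcdha4, 6 bp after the annotated start of Pcdha6 and 9 bp before Pcdha7 and end with the gamma members, over 889.226, 874.243 and 868.072 kb. They did not match the rule and share the start peaks of those alpha members, with pileups of 16, 6 and 12.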
